A study of Mus musculus with 18 samples.

Results

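RNA abundance was compared between bone marrow cells homozygous for a Fabp4 knockout (KO) and wild-type cells (WT) in the in vitro set, whose samples are labelled as vitro bone marrow. The comparison took 6 of the 18 samples in the labels, 3 KO and 3 WT libraries, and tested 10877 of the 22017 genes in the table, those with at least 1 FPKM (fragments scaled by transcript length and library size) in at least 3 of the 9 in vitro libraries. The 3 heterozygous (HET) in vitro libraries entered the fit and are given beside the other genotypes. A second set of libraries came from bone marrow itself. All groups were mouse bone marrow cells of whole-body genotype as labelled, and the labels name neither the sorted population, the culture, the age nor the strain. The series description counts 3 mice for each genotype without stating that every library was a separate mouse, so the p-values measure the spread between libraries, which may be technical. The series title asks about Fabp4 in leukemia stem cells and hematopoietic stem cells. Listed genes of the hypoxia response, of glycolysis and of the immediate early response were set aside, and the genes below lie outside those lists. The lists are not complete, so a gene below may still belong to one of these responses, which was not tested.

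Fabp4 encodes a small cytosolic protein that carries fatty acids between membranes, enzymes and nuclear receptors, and it is best known from adipocytes and macrophages. Members of the family differ in the tissues that make them, and a cell can express several. Lipid carriers of this family deliver ligands to the PPAR nuclear receptors, which switch on genes of lipid uptake, storage and oxidation.

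Fabp4 on chromosome 3 (GRCm38.p6, 10204342 to 10208616) was listed at 0 FPKM in all 3 KO libraries, at 0, 0.0676 and 0 in HET and at 0, 0.0326 and 0.330 in WT. The KO minus WT difference of -0.121 FPKM was no larger than the spread of the libraries (two-sided exact permutation test, p = 0.4, where 0.1 is the smallest possible with 3 against 3), so the level does not check the genotype labels. The estimated depth was 32.3 to 33.9 M fragments in KO, 30.7 to 35.1 M in HET and 31.7 to 36.6 M in WT. The cells carried the blood cell gene Ptprc at 52.1 to 56.5 FPKM in KO and 39.0 to 53.4 in WT, with myeloid markers throughout. The macrophage gene C1qa was listed at 0 in every KO and WT library, and the stromal gene Col1a1 and the endothelial gene Cdh5 were at most 0.0736 FPKM in each. Other markers of the same lists were present in all of these libraries. The macrophage genes Cd68 and Adgre1 were at 26.4 to 45.4 and 4.73 to 8.28 FPKM. Pecam1, of the stromal and endothelial list, was at 96.6 to 107 FPKM. KO 2 stood apart in neutrophil primary granule genes, since Mpo, the myeloperoxidase gene, was at 1224, 2074 and 1186 FPKM in KO 1, 2 and 3, against 1729, 1658 and 1646 FPKM in WT. WT 1 was low in the late granule gene Camp, which was at 29.2, 38.4 and 29.5 FPKM in KO and at 5.93, 25.4 and 27.5 FPKM in WT.

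By limma with Benjamini-Hochberg adjustment at 0.05, 325 of the 10877 tested genes differed between KO and WT cells, which is 2.99% of them. Of these, 148 (1.36%) were higher and 177 (1.63%) were lower in KO, a share of 45.5% higher. With quantile normalization 120 were higher and 222 lower (35.1% higher), and with median-ratio size factors 122 and 223 (35.4%). Outside the lists set aside, 284 genes differed, with 136 higher and 148 lower, and 10 of the higher and 13 of the lower genes changed by at least 2-fold. The KO and WT libraries did not overlap for all 325 genes that differed, as was the case for 22.9% of all tested genes. Before adjustment 2114 genes had a p under 0.05, and the median log2 change of all tested genes was 0.04. Of the 10877 genes 6438 had a positive change and 4439 a negative one. The counts in the gene lists below stand beside these numbers and beside the shares of 1.36% higher and 1.63% lower. HET cells lay between KO and WT or past either of them in different shares of the genes. Of the 136 genes that rose in KO, HET was nearer to KO or beyond it for 59 and 30, nearer to WT for 32 and beyond WT for 15. Of the 148 that fell, HET was between the others but nearer to KO for 63 and nearer to WT for 69, beyond KO for 7 and beyond WT for 9. The number of genes that differed depended on single libraries. It was 76 without KO 1, 489 without KO 2, 72 without KO 3, 197 without HET 2 and 140 without WT 2, and 62 of the 325 genes passed whichever library was left out, 26 higher and 36 lower.

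**Figure D1:**
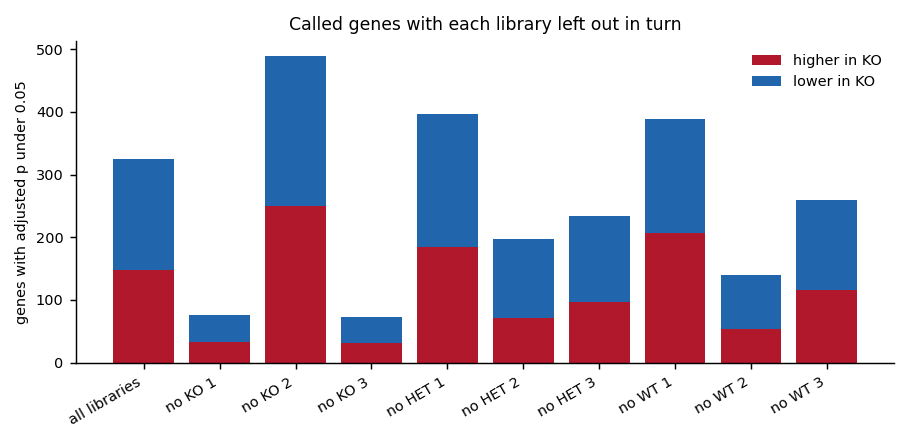
Number of genes with an adjusted p under 0.05 between KO and WT cells in vitro (vertical axis), with all 9 libraries and with each left out in turn, split into genes higher and lower in KO. The count was 325 with all libraries, 489 without KO 2 and 72 without KO 3.

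The largest rise belonged to Ly6k, a gene of the Ly6 family of small membrane-anchored proteins on chromosome 15 (74796874 to 74799968). It had 20.7, 21.7 and 20.6 FPKM in KO libraries, 3.46, 4.61 and 3.29 in HET and 0.280, 0.255 and 0.328 in WT. The 3 genotypes did not overlap, and HET lay between the other two, closer on the linear scale to WT. The log2 change of KO against WT was 4.09 ± 0.11 (SE), with an adjusted p of 2.33e-09. Capn11, a gene of the calpain family of calcium-dependent proteases on chromosome 17 (45630191 to 45659709), had 2.44, 2.72 and 2.74 FPKM in KO, 0.390, 0.340 and 0.379 in HET and 0, 0.0182 and 0.0410 in WT. It showed the same order as Ly6k, with low values in HET and almost none in WT (log2 change 1.83 ± 0.10, adjusted p = 1.83e-06).

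Other genes rose in KO cells with HET near WT. Slc15a2, a gene of a proton-coupled transporter of small peptides, had 2.65, 2.64 and 3.06 FPKM in KO, 0.533, 0.433 and 0.406 in HET and 0.369, 0.589 and 0.380 in WT. HET and WT libraries overlapped, and every KO library lay above them (log2 change 1.39 ± 0.11, adjusted p = 7.77e-05). Tmem215, which encodes a membrane protein, averaged 4.15 ± 0.331 FPKM in KO, 2.08 in HET and 2.11 ± 0.0839 in WT (SD, n = 3 each), a log2 change of 0.73 (adjusted p = 0.00383). Smpdl3a, a phosphodiesterase gene of the acid sphingomyelinase family, was at 4.52, 4.56 and 4.55 FPKM in KO and 1.79, 2.25 and 2.99 in WT (log2 change 0.75, adjusted p = 0.0108), and its call ended without KO 1 or KO 3 (adjusted p up to 0.0554). The other genes of this and the preceding paragraph passed whichever library was left out.

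**Figure D2:**
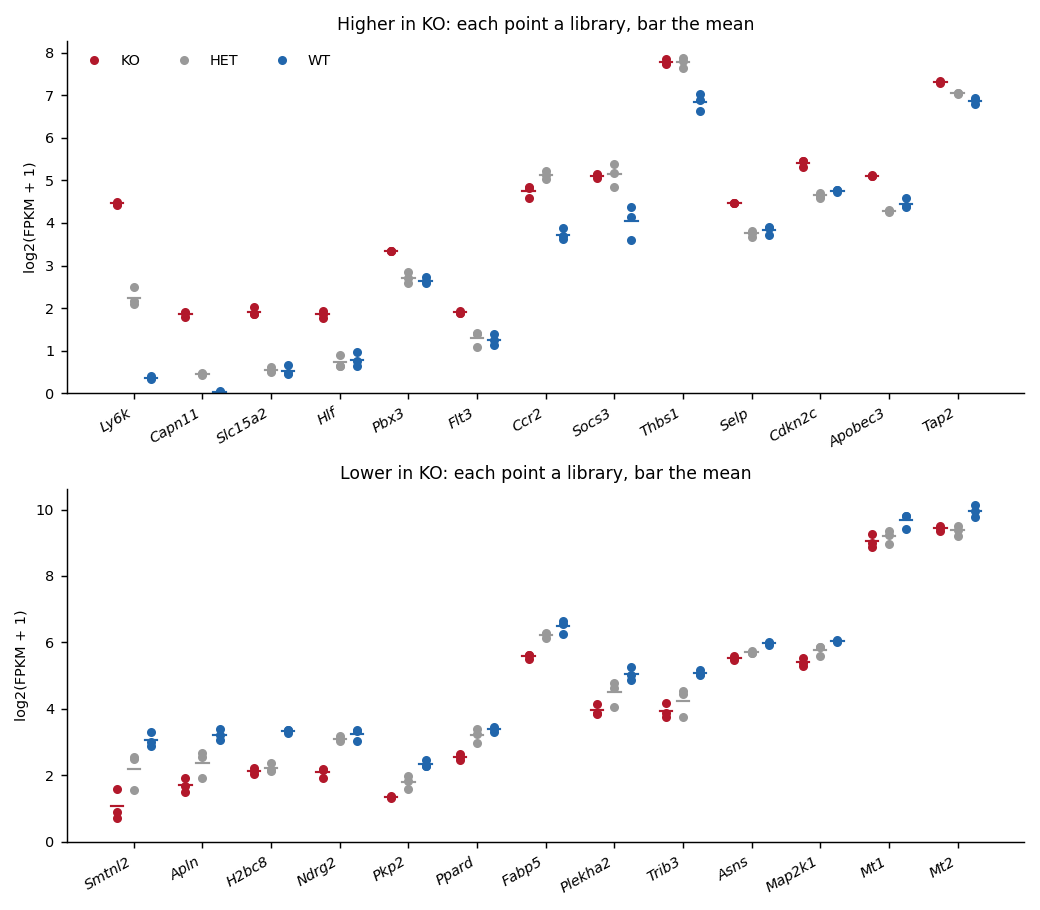
log2(FPKM + 1) in each in vitro library (points) with the mean of a genotype (bars), for 13 genes that were higher in KO (upper panel) and 13 that were lower (lower panel), with KO, HET and WT from left to right. HET sits with WT for Slc15a2, Hlf, Selp and Cdkn2c, and with KO for Thbs1, Socs3 and Mt2.

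Few regulators of stem and progenitor cells and few genes of the leukemia stem cell program passed, and some single changes were strong. A positive change was seen in 23 of 30 stem and progenitor regulators and in 30 of 37 leukemia genes. Over all tested genes it was 6438 of 10877. Of 30 tested stem and progenitor regulators 1 rose and 1 fell, with a median log2 change of 0.14, and of 37 genes of the leukemia list 2 rose and 1 fell, with a median of 0.14, beside 0.04 over all tested genes. Hlf, a transcription factor gene of stem and progenitor cells, had 2.63, 2.84 and 2.42 FPKM in KO, 0.551, 0.873 and 0.571 in HET and 0.561, 0.945 and 0.688 in WT. The KO libraries stood clear of both other genotypes (log2 change 1.07 ± 0.12, adjusted p = 0.00103). Pbx3, whose product binds DNA together with HOX proteins, had 9.13, 9.08 and 9.14 FPKM in KO, 6.17, 5.03 and 5.55 in HET and 5.02, 5.61 and 5.18 in WT. Here too HET and WT overlapped (log2 change 0.69 ± 0.09, adjusted p = 0.00288). Flt3, the receptor kinase gene of early lymphoid and myeloid progenitors, had 2.71, 2.80 and 2.67 FPKM in KO and 1.63, 1.37 and 1.18 in WT (log2 change 0.64 ± 0.12, adjusted p = 0.0168). Cd96, an immunoglobulin-family receptor gene used as a leukemia stem cell marker in humans, fell to 0.191, 0.299 and 0.619 FPKM in KO, against 1.29, 1.11 and 1.58 FPKM in WT (log2 change -0.77, adjusted p = 0.0146), and all 6 values are low. Hoxb5os, a noncoding antisense gene of the Hoxb cluster, was at 22.5 ± 1.56 FPKM in KO, 20.3 in HET and 13.1 ± 2.07 in WT (log2 change 0.74, adjusted p = 0.00816). Whether the counting used strand is not stated, so reads of Hoxb5os and of the Hoxb genes it overlaps may not be separable. The call of Flt3 ended without KO 1, KO 3 or WT 2 (adjusted p up to 0.0728), that of Cd96 without KO 1 (0.0718) and that of Hoxb5os without KO 3 (0.0516).

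Cdkn2c, which encodes the p18 inhibitor of the G1 cyclin-dependent kinases, rose in KO cells alone. It had 42.7, 42.9 and 39.1 FPKM in KO, 25.3, 23.2 and 23.9 in HET and 26.5, 25.5 and 26.3 in WT. No KO library came near the others (log2 change 0.65 ± 0.07, adjusted p = 0.00098). Cdkn1a, the p53-inducible gene of another inhibitor of cyclin-dependent kinases, moved the other way, with 125, 126 and 123 FPKM in KO, 127, 155 and 151 in HET and 167, 183 and 184 in WT (log2 change -0.51 ± 0.08, adjusted p = 0.00949). Without KO 3 the adjusted p of Cdkn1a was 0.0542. Among 25 cyclin and inhibitor genes no other gene passed, and the mitosis list of 57 genes held 0 calls (6 members had an unadjusted p under 0.05, by limma). The mitotic ubiquitin-conjugating enzyme gene Ube2c averaged 186 FPKM in KO and 175 in WT (adjusted p = 0.599).

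Ccr2, Ms4a6c and Itgam, which are expressed by monocytes, rose in KO cells, and their HET means were at least as high. Of 22 tested monocyte and macrophage genes 3 rose and 0 fell, 19 had a positive change, and the median log2 change was 0.16 against 0.04 over all genes. Csf1r and Ctss of this list did not pass, and their KO and WT libraries overlapped. Csf1r averaged 2.68 FPKM in KO and 2.43 in WT (log2 change 0.10, adjusted p = 0.744 by limma). Ctss averaged 4.34 FPKM in KO and 4.93 in WT (log2 change -0.14, adjusted p = 0.723 by limma). Both were higher in HET libraries, at 7.13 to 8.27 FPKM for Csf1r and 16.4 to 20.5 for Ctss. Ccr2, the receptor through which monocytes leave the marrow, had 27.9, 23.1 and 27.2 FPKM in KO, 31.7, 33.9 and 36.6 in HET and 13.6, 11.9 and 11.3 in WT. The HET libraries were above the KO libraries, and both genotypes were above WT (log2 change of KO against WT 1.03 ± 0.10, adjusted p = 0.000439). Ms4a6c, a membrane protein gene of monocytes, had 9.21, 10.2 and 7.24 FPKM in KO, 10.1, 9.71 and 10.7 in HET and 5.69, 4.05 and 4.31 in WT (log2 change 0.80 ± 0.13, adjusted p = 0.0105). Itgam, the CD11b integrin subunit gene, averaged 62.0 ± 2.35 FPKM in KO, 62.4 in HET and 44.5 ± 3.47 in WT (log2 change 0.47, adjusted p = 0.028). The summed level of the monocyte list was 555 to 792 FPKM in KO and 515 to 626 in WT. In bulk samples fewer cells of a type and less RNA per cell cannot be told apart. The call of Ms4a6c ended without KO 1 (adjusted p = 0.0546), and that of Itgam without any of KO 1 to 3, WT 2 or WT 3 (up to 0.110), while Ccr2 passed in every case.

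Of 49 tested adhesion genes 6 rose and 0 fell, 40 had a positive change, and the median log2 change was 0.15. Over all tested genes 1.36% rose, and 6438 of 10877 had a positive change. The number of adhesion genes that rose was 2 to 6 with 1 library left out. It was 3 with the KO and WT libraries alone and 2 with no filter on low values. Thbs1, which encodes the secreted matrix glycoprotein thrombospondin 1, had 217, 230.4 and 212 FPKM in KO, 222, 199 and 236 in HET and 118, 129 and 97.6 in WT. KO and HET libraries overlapped and all of them lay above WT (log2 change 0.94 ± 0.10, adjusted p = 0.00098). Selp, the P-selectin gene of platelets and endothelium, had 21.3, 21.2 and 21.1 FPKM in KO, 11.7, 12.7 and 13.1 in HET and 12.3, 13.7 and 13.9 in WT. For Selp it was HET and WT that overlapped (log2 change 0.64 ± 0.08, adjusted p = 0.00209). The tetraspanin gene Tspan13 followed Selp, with 37.5 ± 0.411 FPKM in KO, 22.8 in HET and 27.8 ± 2.75 in WT (log2 change 0.43, adjusted p = 0.026). Adgre5, the CD97 adhesion receptor gene, averaged 29.2 FPKM in KO and 21.9 in WT (log2 change 0.40, adjusted p = 0.0362), and Itgam was also among the genes that rose. Thbs1 and Selp passed whichever library was left out. The calls of Tspan13 (without KO 1, KO 3, HET 2, WT 1 or WT 2) and of Adgre5 (KO 1, KO 3, HET 2, WT 2 or WT 3) ended, with adjusted p up to 0.118 and 0.147.

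**Figure D3:**
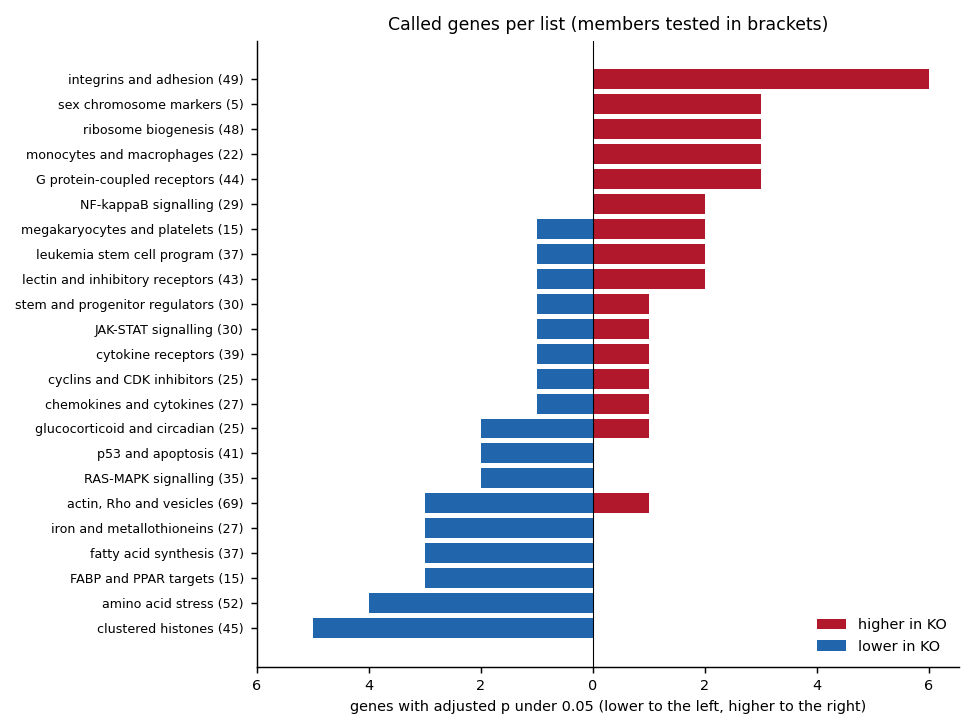
Number of genes with an adjusted p under 0.05 in each list with at least 2 of them, lower in KO to the left and higher in KO to the right, with the number of tested members in brackets. Integrins and adhesion have 6 genes higher, and clustered histones have 5 lower.

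Ligands and their signalling pathways changed in single members. Cxcl2, a chemokine gene that attracts neutrophils, had 70.1, 139 and 109.9 FPKM in KO, 55.9, 68.1 and 96.8 in HET and 49.3, 32.1 and 45.1 in WT. The KO libraries spread widely and the lowest of them lay below HET 3 (log2 change 1.28 ± 0.27, adjusted p = 0.0368). Apln, the gene of the secreted peptide apelin, fell to 2.22, 2.79 and 1.85 FPKM in KO, with 2.76, 4.91 and 5.42 in HET, against 9.51, 7.40 and 8.21 FPKM in WT (log2 change -1.52 ± 0.19, adjusted p = 0.0018). Of the 27 tested members of the chemokine and cytokine list these were the 2 that passed. The list is not complete, since it lacks the chemokine gene Pf4, given below, and the interleukin gene Il36g. Il36g also passed, with a mean of 2.69 FPKM in KO, 4.29 in HET and 1.23 in WT (log2 change 0.72, adjusted p = 0.0120 by limma). Its call ended without KO 3 or WT 2 (adjusted p up to 0.0539). Among cytokine receptors, Tnfrsf18, the GITR costimulatory receptor gene, was at 39.1 ± 6.62 FPKM in KO and 60.3 ± 6.39 in WT (log2 change -0.62, adjusted p = 0.0176). The call of Cxcl2 ended without KO 2, KO 3, HET 2, WT 2 or WT 3 (adjusted p up to 0.175) and that of Tnfrsf18 without KO 1 or WT 2 (up to 0.0667).

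Socs3, the feedback inhibitor gene of cytokine receptors that signal through STAT3, had 34.5, 32.1 and 34.0 FPKM in KO, 28.0, 35.3 and 40.7 in HET and 11.1, 16.6 and 19.8 in WT. KO and HET overlapped, and WT lay below both (log2 change 1.07 ± 0.18, adjusted p = 0.0105). Pim2, a survival kinase gene that cytokine signals induce, moved in the opposite direction, with 13.4, 15.9 and 12.98 FPKM in KO, 11.4, 16.7 and 18.3 in HET and 26.7, 24.4 and 29.96 in WT (log2 change -0.89 ± 0.15, adjusted p = 0.0108). These were the 2 that passed of 30 genes of JAK-STAT signalling. Both calls ended without KO 1 or KO 3 (adjusted p up to 0.0598).

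In the RAS-MAPK list 2 of 35 genes fell and 0 rose. Map2k1, which encodes the kinase MEK1, had 40.7, 45.0 and 38.5 FPKM in KO, 47.0, 56.7 and 57.0 in HET and 65.6, 63.4 and 66.6 in WT. The genotypes formed 3 separate ranges in that order (log2 change -0.65 ± 0.09, adjusted p = 0.00346). Etv5, an ETS transcription factor gene that the pathway induces, was at 2.91 ± 0.234 FPKM in KO, 4.44 in HET and 4.63 ± 0.585 in WT (log2 change -0.52, adjusted p = 0.026). Of 29 NF-kappaB genes 2 rose, Nfkbid, an atypical inhibitor of the pathway (8.16 FPKM in KO and 5.34 in WT, log2 change 0.54, adjusted p = 0.0262), and Ikbkb, an activating kinase gene (24.1 and 18.5 FPKM in KO and WT, log2 change 0.36, adjusted p = 0.0451). Map2k1 passed whichever library was left out. The calls of Etv5 (without KO 1, KO 3 or WT 3), of Nfkbid (KO 1, KO 3 or WT 2) and of Ikbkb (any library except KO 2 and WT 1) ended, with adjusted p up to 0.116, 0.119 and 0.199.

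Apobec3, which encodes a cytidine deaminase that restricts retroviruses, had 34.2, 33.3 and 33.1 FPKM in KO, 18.3, 18.8 and 18.1 in HET and 22.96, 19.7 and 20.3 in WT. HET lay below WT, and KO lay above both (log2 change 0.65 ± 0.08, adjusted p = 0.0011). Tap2, a subunit gene of the transporter that loads peptides onto class I molecules, had 158, 159 and 157 FPKM in KO, 132, 132 and 131 in HET and 117, 121 and 109.6 in WT. It rose in steps, with narrow ranges that did not touch (log2 change 0.44 ± 0.06, adjusted p = 0.00413). Ifitm3, an interferon-induced inhibitor of virus entry, fell to 163, 160.1 and 154 FPKM in KO, with 216, 233 and 219.6 in HET, against 209.7, 205 and 274 FPKM in WT (log2 change -0.51 ± 0.10, adjusted p = 0.022). It was the single gene to pass of the 34 tested members of the interferon list, where 2.99% of all tested genes did. The list does not hold Apobec3 or Tap2, and 26 of its 34 tested members had a positive change. The count therefore does not cover every gene that interferon can induce. Ifitm3 is also the stem and progenitor regulator counted above as falling. The median log2 change of the interferon list was 0.11. The call of Ifitm3 ended without KO 1 or KO 3 (adjusted p up to 0.106).

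Of 48 tested genes of ribosome production 3 rose and 0 fell, with a median log2 change of 0.14. The number that rose was 0 to 8 with 1 library left out. The summed level of the list did not rise, at 2568 to 2572 FPKM in KO and 2604 to 2628 in WT. Gnl3, a nucleolar GTP-binding protein gene also called nucleostemin, had 62.0, 51.5 and 65.4 FPKM in KO, 60.9, 41.4 and 39.2 in HET and 36.2, 35.7 and 34.9 in WT. The WT libraries were tight and all below KO, while HET spanned most of the range (log2 change 0.72 ± 0.14, adjusted p = 0.0231). Nop2, an rRNA methyltransferase gene, averaged 30.6 ± 4.58 FPKM in KO and 18.001 ± 1.48 in WT (log2 change 0.72, adjusted p = 0.0365). Polr1b, a subunit gene of RNA polymerase I, averaged 8.78 ± 1.44 FPKM in KO and 5.26 ± 0.106 in WT (log2 change 0.63, adjusted p = 0.0437). In each of the 3 genes KO 2 was the lowest KO library. Their calls ended without KO 1, KO 3, WT 2 or WT 3, and with no filter on low values (adjusted p up to 0.189 with a library left out). The 59 cytosolic ribosomal protein genes held 0 calls, with 1 member at an unadjusted p under 0.05 by limma, and Rplp1 was at 4344 FPKM in KO and 4243 in WT (adjusted p = 0.821).

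A single gene of the 9 tested in the eosinophil list passed the test. It was Ear2, a ribonuclease gene of eosinophils, which fell to 4.24, 6.49 and 3.53 FPKM in KO, with 34.6, 10.2 and 15.6 in HET, against 13.5, 24.05 and 32.7 FPKM in WT (log2 change -2.04 ± 0.42, adjusted p = 0.0336). Its call ended without any KO library, WT 2 or WT 3 (adjusted p up to 0.189). The next genes of the list are given after their values were seen. Epx, the eosinophil peroxidase gene, had 221, 234 and 195 FPKM in KO, 509, 254 and 289 in HET and 352, 459 and 400.1 in WT (log2 change -0.89, adjusted p = 0.0512). Prg2, the major basic protein gene, had 1071, 1329 and 952 FPKM in KO, 2115, 1093 and 1343 in HET and 1748, 2273 and 2186 in WT (log2 change -0.89, adjusted p = 0.0517). KO and WT libraries did not overlap for 6 of the 9 tested genes, against 22.9% of all tested genes, and 7 of the 9 had a negative change. The list's median log2 change was -0.89, and its summed level was 1465 to 1906 FPKM in KO and 2467 to 3213 in WT. For Epx and Prg2, HET 1 was high and the other HET libraries were near KO. Siglecf, a surface receptor gene of eosinophils, did not follow, at 17.7, 18.3 and 17.9 FPKM in KO and 18.1, 18.2 and 17.7 in WT (adjusted p = 0.990). Ear1, Ear2 and Ear6 are near-identical copies, so reads may be shared between them.

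Other blood lineages changed by single genes. Of 19 tested mast cell and basophil genes 0 differed by limma, with 3 at an unadjusted p under 0.05, and the basophil protease gene Mcpt8 had 908, 672 and 1047 FPKM in KO, against 545, 1085 and 1427 FPKM in WT. WT 1 was the lowest library and WT 3 the highest (log2 change -0.13, adjusted p = 0.846). Of 17 primary granule genes 0 differed, 4 at an unadjusted p under 0.05, and Mpo gave a log2 change of -0.22 (adjusted p = 0.510). Of 24 late granule genes Padi4, which encodes the enzyme that citrullinates histones in neutrophils, rose to 56.7 ± 4.51 FPKM in KO, against 41.7 ± 1.85 FPKM in WT (log2 change 0.43, adjusted p = 0.0167). The platelet chemokine gene Pf4 fell to 71.4 ± 3.60 FPKM in KO, against 97.8 ± 7.67 FPKM in WT (log2 change -0.45, adjusted p = 0.0451), while Selp and Thbs1, also carried by platelets, rose. The chaperone gene of alpha hemoglobin, Ahsp, was at 2.28 FPKM in KO and 4.22 in WT (log2 change -0.67, adjusted p = 0.0229), and Thy1, a surface glycoprotein gene of T cells and some progenitors, was at 52.8 ± 4.78 FPKM in KO and 72.7 ± 6.94 in WT (log2 change -0.45, adjusted p = 0.021). Each of these 4 calls ended without KO 1 and without other libraries (adjusted p up to 0.170).

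**Figure D4:**
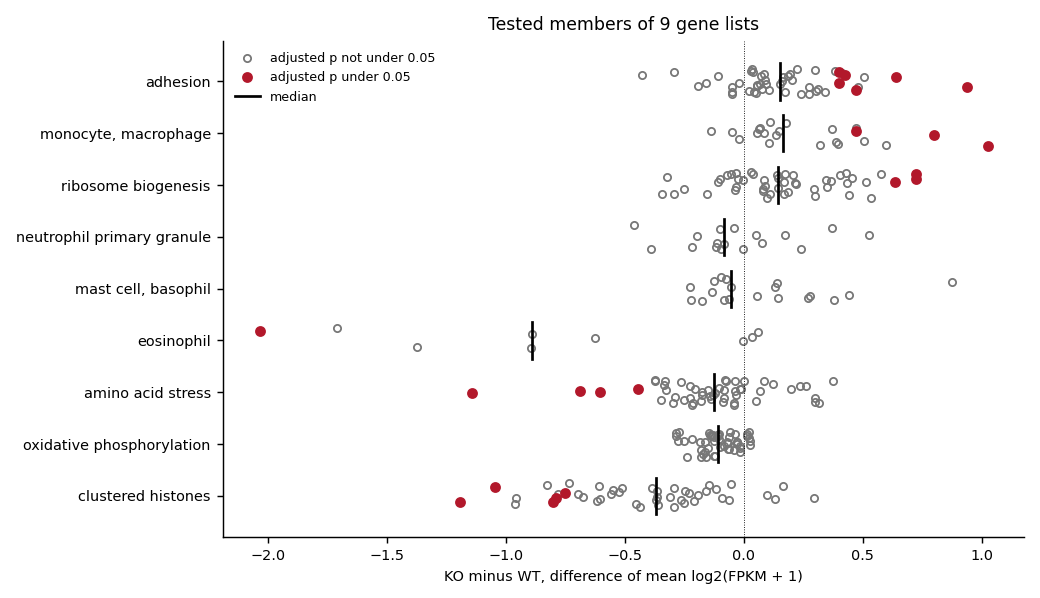
KO minus WT change on the log2(FPKM + 1) scale (horizontal axis) of each tested member of 9 gene lists, with called genes filled and the list's median as a vertical line. The medians are -0.89 for eosinophil genes, -0.37 for clustered histones and 0.15 for adhesion genes.

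Some replication-dependent histone genes, H2bc8 above all, fell in KO cells. Genes of this kind lie in clusters, are expressed in S phase and make mRNAs that mostly lack a poly(A) tail. Of 45 tested genes 5 fell and 0 rose, 41 had a negative change and 24 had an unadjusted p under 0.05, and the median log2 change was -0.37. H2bc8, a gene of the large cluster on chromosome 13 (23571400 to 23571863), had 3.08, 3.69 and 3.42 FPKM in KO, 3.34, 3.47 and 4.22 in HET and 8.64, 9.29 and 9.23 in WT. HET overlapped with KO and both stood well below WT (log2 change -1.19 ± 0.10, adjusted p = 0.000164). H2bc11 had 1.94, 1.83 and 1.53 FPKM in KO, 2.55, 4.50 and 2.55 in HET and 6.47, 3.48 and 4.54 in WT (log2 change -1.05, adjusted p = 0.02). H2bc9 averaged 2.11 ± 0.185 FPKM in KO and 4.43 ± 0.398 in WT, the linker histone gene H1f3 averaged 4.82 ± 0.379 and 9.37 ± 3.30 FPKM in KO and WT, and H2ac6 averaged 1.76 ± 0.632 and 3.62 ± 0.862. H2bc8 passed whichever library was left out. The calls of H2bc9 and H2bc11 ended without KO 1 or KO 3 (WT 2 as well for H2bc9) and those of H1f3 and H2ac6 without 7 or more of the libraries, with adjusted p up to 0.130. Histone genes of a class are near-identical in coding sequence, so their reads may be shared, and how much RNA without poly(A) tails the libraries kept is not stated. The summed level of the list overlapped, at 381 to 396 FPKM in KO and 377 to 553 in WT. Of 55 genes of DNA replication and nucleotide synthesis 1 fell, where 1.63% of all tested genes did. It was the primase subunit gene Prim1 (20.5 ± 1.68 FPKM in KO and 26.5 ± 0.437 in WT, log2 change -0.36, adjusted p = 0.0491), whose call ended without any of 7 libraries (up to 0.208).

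The genes called in the FABP and PPAR list and in the fatty acid synthesis list were all lower in KO. Fabp5, the epidermal family member, lies close to Fabp4 on chromosome 3 (10012585 to 10016610) and was the single gene called among 16 tested within 5 Mb of it. Fabp5 had 44.1, 48.8 and 48.4 FPKM in KO, 76.7, 74.7 and 69.7 in HET and 75.1, 93.6 and 100.2 in WT. KO lay far below both other genotypes, which overlapped (log2 change -0.90 ± 0.10, adjusted p = 0.00098). Ppard, the gene of the PPAR receptor found in most tissues, had 4.51, 4.92 and 5.29 FPKM in KO, 6.87, 8.44 and 9.49 in HET and 10.005, 8.95 and 9.55 in WT (log2 change -0.83 ± 0.11, adjusted p = 0.00319). The cholesterol exporter gene Abcg1 had 4.27, 4.29 and 3.75 FPKM in KO, 5.19, 6.55 and 6.53 in HET and 7.17, 6.80 and 7.10 in WT (log2 change -0.65 ± 0.10, adjusted p = 0.00768). These 3 of 15 tested genes of the FABP and PPAR list fell and 0 rose, and the median of the list was 0.05. Without KO 3 the adjusted p of Abcg1 was 0.0539.

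Of 37 genes of fatty acid synthesis 3 fell and 0 rose, with a median log2 change of -0.07. The desaturase genes Scd1 and Scd2, which make monounsaturated fatty acids, fell together. Scd1 had 14.7, 12.8 and 13.9 FPKM in KO, 22.9, 17.9 and 17.7 in HET and 19.9, 20.5 and 19.6 in WT (log2 change -0.50 ± 0.10, adjusted p = 0.0231). Scd2, the more abundant of the 2, had 237, 218 and 218 FPKM in KO, 289, 269.8 and 288 in HET and 353, 316 and 266 in WT (log2 change -0.46 ± 0.09, adjusted p = 0.0254). For both genes HET overlapped with WT and no KO library reached either. The third was Agpat5, an acyltransferase gene of phosphatidic acid synthesis, at 18.5 ± 1.04 FPKM in KO and 25.2 ± 1.62 in WT (log2 change -0.43, adjusted p = 0.0174). All 3 calls ended without KO 1 or KO 3, and those of Scd1 and Scd2 also without WT 2 (adjusted p up to 0.119). Of 33 genes of fatty acid oxidation and 34 of cholesterol synthesis 0 differed, with 3 and 9 at an unadjusted p under 0.05 by limma. The oxidation gene Etfb was at 244 ± 11.4 FPKM in KO and 229 ± 10.96 in WT (adjusted p = 0.532).

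Trib3, Asns, Mthfd1l and Eif4ebp1, genes of the amino acid response, fell in KO cells. This response runs through the transcription factor ATF4, which cells switch on when amino acids are short or mitochondria are stressed, and which binds composite C/EBP-ATF elements. Of 52 tested genes 4 fell and 0 rose, 40 had a negative change, and the median log2 change was -0.13. The promoters of Asns and Trib3 are shown because each holds a match to the composite element TGATGNAA (searched on both strands, any overlap counted), which is in capitals. The windows run from 250 bases before to 50 bases after the start listed by RefSeq (GRCm38.p6), and both genes are on the minus strand, Asns at chr6:7693160-7693459 and Trib3 at chr2:152344011-152344310.
Asns promoter: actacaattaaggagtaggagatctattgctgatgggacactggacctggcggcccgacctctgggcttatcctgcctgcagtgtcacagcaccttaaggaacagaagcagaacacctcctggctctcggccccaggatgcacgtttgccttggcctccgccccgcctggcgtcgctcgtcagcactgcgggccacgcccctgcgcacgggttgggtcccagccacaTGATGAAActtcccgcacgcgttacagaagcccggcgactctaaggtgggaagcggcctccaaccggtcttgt
Trib3 promoter: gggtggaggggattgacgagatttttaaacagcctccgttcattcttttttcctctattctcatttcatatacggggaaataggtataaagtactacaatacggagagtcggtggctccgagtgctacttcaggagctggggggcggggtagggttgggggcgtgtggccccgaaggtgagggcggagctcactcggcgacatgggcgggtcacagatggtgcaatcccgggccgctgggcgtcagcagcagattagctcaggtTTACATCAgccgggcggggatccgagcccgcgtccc
The match of Asns began 23 bases before the listed start, and that of Trib3, on the other strand, lay within the 50 bases after it. Such a match was held by 2.25% of the promoters of 8838 tested genes, by 1.85% of the 108 promoters of genes that rose and by 2.61% of the 115 of genes that fell.

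Trib3, a stress-induced pseudokinase gene, had 12.5, 16.9 and 13.7 FPKM in KO, 12.5, 22.3 and 21.001 in HET and 34.8, 31.2 and 32.2 in WT. KO and HET overlapped, and WT was well above them (log2 change -1.14 ± 0.18, adjusted p = 0.00768). Asns, the asparagine synthetase gene, had 45.3, 47.0 and 43.6 FPKM in KO, 50.2, 52.4 and 50.9 in HET and 60.3, 63.0 and 62.9 in WT, with 3 separate ranges (log2 change -0.45 ± 0.06, adjusted p = 0.0044). Mthfd1l, a gene of mitochondrial one-carbon metabolism, had 23.4, 25.5 and 22.7 FPKM in KO, 33.2, 32.5 and 34.2 in HET and 41.0, 35.5 and 34.3 in WT (log2 change -0.61 ± 0.08, adjusted p = 0.00332). HET lay just under WT and well above KO. Eif4ebp1, the repressor gene of cap-dependent translation that mTOR inactivates, had 88.3, 107 and 88.8 FPKM in KO, 89.0, 111 and 108 in HET and 151, 137 and 173 in WT (log2 change -0.69 ± 0.11, adjusted p = 0.0103). Trib3, Asns and Mthfd1l passed whichever library was left out, and without KO 1 or KO 3 the adjusted p of Eif4ebp1 was up to 0.0586. None of the 31 genes of the endoplasmic reticulum stress response (0) or of the 24 heat shock genes (0) differed by limma, with 4 and 7 at an unadjusted p under 0.05. The chaperone gene Calr was at 1314 FPKM in KO and 1269.97 in WT (adjusted p = 0.818).

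Metallothioneins, small cysteine-rich proteins that bind zinc and copper, were among the most abundant transcripts that fell. Their genes carry metal response elements, the sites of the zinc-sensing factor MTF-1. The promoters of Mt1 and Mt2, neighbours on the plus strand of chromosome 8, are shown with matches to the core of that element, TGCACNC or TGCGCNC on either strand, in capitals. The windows are chr8:94178839-94179138 for Mt1 and chr8:94172368-94172667 for Mt2 (RefSeq, GRCm38.p6).
Mt1 promoter: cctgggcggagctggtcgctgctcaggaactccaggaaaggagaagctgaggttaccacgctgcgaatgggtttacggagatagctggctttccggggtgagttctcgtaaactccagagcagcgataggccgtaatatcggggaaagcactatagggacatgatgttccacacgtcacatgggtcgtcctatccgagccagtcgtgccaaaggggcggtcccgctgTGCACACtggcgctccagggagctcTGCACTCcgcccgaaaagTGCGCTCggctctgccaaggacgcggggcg
Mt2 promoter: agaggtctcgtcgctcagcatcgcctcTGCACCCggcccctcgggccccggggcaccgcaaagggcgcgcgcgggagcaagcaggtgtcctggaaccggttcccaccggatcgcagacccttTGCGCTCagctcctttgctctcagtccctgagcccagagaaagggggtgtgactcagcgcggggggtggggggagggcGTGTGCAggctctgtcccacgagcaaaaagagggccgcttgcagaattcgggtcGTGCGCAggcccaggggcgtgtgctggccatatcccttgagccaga
Mt1 had 3 matches and Mt2 had 4. Among the promoters of 8838 tested genes 36.3% held at least 1 match, 3.32% at least 3 and 0.883% at least 4. At least 1 match was held by 42.6% of the promoters of genes that rose and 40.9% of those of genes that fell.

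Mt1 had 509, 618 and 468 FPKM in KO, 501, 655 and 606 in HET and 894, 680.5 and 896 in WT. KO and HET overlapped, and the lowest WT library, WT 2, was above the highest of both (log2 change -0.63 ± 0.14, adjusted p = 0.0331). Mt2 had 652, 718 and 697 FPKM in KO, 588, 732 and 674 in HET and 982, 874 and 1123 in WT, with the same order (log2 change -0.52 ± 0.10, adjusted p = 0.0228). Hmox1, the heme oxygenase gene that oxidative stress and heme induce, fell to 22.9, 30.02 and 23.8 FPKM in KO, with 36.5, 44.6 and 43.4 in HET, against 39.3, 36.7 and 42.6 FPKM in WT (log2 change -0.62 ± 0.11, adjusted p = 0.0153). So HET sided with KO for the metallothioneins and with WT for Hmox1. These 3 of 27 genes of iron and metal handling fell and 0 rose, while the median of the list was 0.06. The calls of Mt2 and Hmox1 ended without KO 1 or KO 3 and that of Mt1 without KO 1, KO 3, HET 3, WT 1 or WT 3 (adjusted p up to 0.153).

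Further large falls lay outside these groups. Smtnl2, a gene of the smoothelin family of actin-associated proteins, had 0.652, 2.01 and 0.855 FPKM in KO, 1.96, 4.66 and 4.82 in HET and 8.97, 6.36 and 7.04 in WT. The KO and HET ranges just touched, and WT was above all of them (log2 change -2.0005 ± 0.27, adjusted p = 0.00358). Ndrg2, a member of the N-myc downstream-regulated family, had 2.77, 3.60 and 3.46 FPKM in KO, 7.14, 8.02 and 7.53 in HET and 9.16, 9.22 and 7.28 in WT (log2 change -1.16 ± 0.11, adjusted p = 0.000572). Pkp2, a plakophilin gene of desmosomes, averaged 1.55 ± 0.0644 FPKM in KO, 2.51 in HET and 4.08 ± 0.328 in WT (log2 change -0.99, adjusted p = 0.00103). Plekha2, an adaptor gene with phosphoinositide-binding domains, averaged 14.6 ± 1.77 FPKM in KO, 22.1 in HET and 32.3 ± 4.49 in WT (log2 change -1.09, adjusted p = 0.00669). Exosc8, a subunit gene of the RNA-degrading exosome, had 100.4, 115 and 106 FPKM in KO, 121, 141 and 133 in HET and 164, 160.1 and 193 in WT (log2 change -0.68 ± 0.09, adjusted p = 0.00269). These genes, and Spats2 (4.14 FPKM in KO and 8.13 in WT) and the phosphatase gene Pgp (22.3 and 37.3 FPKM in KO and WT), passed whichever library was left out. The other two falls given here did not. Rcor2, a corepressor gene, was at 6.35 ± 1.55 FPKM in KO and 15.3 ± 3.77 in WT, and the muscle-type glycogen synthase gene Gys1 at 37.7 ± 3.96 and 70.5 ± 10.5 FPKM in KO and WT, and both calls ended without KO 1 or KO 3 (adjusted p up to 0.0858).

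Genes of oxidative phosphorylation leaned to lower values without a call. Of 50 tested genes 44 had a negative change, with a median log2 change of -0.11, and 0 differed by limma (10 had an unadjusted p under 0.05). Atp5b, a subunit gene of ATP synthase, was at 524 ± 22.3 FPKM in KO and 594 ± 28.5 in WT (log2 change -0.18, adjusted p = 0.205). Cox6c, a subunit gene of cytochrome oxidase, was at 443 ± 10.1 and 476 ± 30.01 FPKM in KO and WT (adjusted p = 0.435).

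Of 5 tested sex chromosome markers 3 rose, all of them Y-linked. Every library held Xist, the RNA that silences an X chromosome in females, together with Y genes. Whether a library pooled cells of male and female mice is not stated in the labels and was not tested. The libraries of a genotype may therefore not be separate mice. Ddx3y, a Y-linked RNA helicase gene, had 7.10, 5.48 and 6.80 FPKM in KO, 8.91, 9.14 and 11.7 in HET and 3.82, 3.35 and 2.39 in WT (log2 change 0.84 ± 0.15, adjusted p = 0.0139). Kdm5d and Eif2s3y showed the same order, with HET above KO above WT (adjusted p = 0.0204 and 0.0334 for KO against WT). Xist was at 43.2, 25.2 and 40.0 FPKM in KO and at 44.8, 49.6 and 31.4 in WT (adjusted p = 0.622). The part of this difference in the other changes was not tested. Leaving out all genes of chromosomes X and Y kept 308 genes called. Only 12 called genes lay on X and 3 on Y, so that count does not bear on genes of the other chromosomes. The calls of the 3 Y genes ended without KO 1 or KO 3, among other libraries (adjusted p up to 0.158).

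The bone marrow set, with 3 KO, 2 HET and 3 WT libraries, gave 0 genes past the threshold among 7246 tested (0%) by limma. Of the 7246, 370 had an unadjusted p under 0.05, which is 5.11%. For 3476 of the 7246 at least 1 KO or WT library was listed at exactly 0, and the depth of these libraries was not estimated. Of the 325 genes called in vitro, 199 were tested there, and 106 of them changed in the same direction. Of the 199, 97 had such a 0, and 11 (5.53%) had an unadjusted p under 0.05 in bone marrow by limma. Of these 11, 9 changed in the same direction as in vitro. Mt1 was among them, with 417, 511 and 317 FPKM in KO, 523 and 333 in HET and 1658, 866 and 1319 in WT, and its KO and WT libraries did not overlap (log2 change -1.60, adjusted p = 0.417). Ly6k ran the other way in bone marrow, with 0, 26.3 and 47.6 FPKM in KO, 0 and 114 in HET and 134, 338 and 29.6 in WT, and KO and WT libraries overlapped (log2 change -3.35, adjusted p = 0.993). Ccr2 had 79.4, 28.7 and 50.4 FPKM in KO and 39.1, 29.1 and 63.1 in WT there, also with overlap. In a joint fit over both sets the change of 51 of 6915 genes (0.738%) differed between the sets.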

How the data were processed

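Sorted bone marrow cells were profiled by RNA sequencing after TRIzol extraction and VAHTS library preparation, per the labels' protocols. The authors deposited FPKM values per gene, per the file headers, and mm10 is named in the submitters' processing notes. The sources used here do not give the aligner, the counter, the annotation, strand use or filters. FPKM are relative to library totals and are not counts. Depth was estimated from the steps between low values (30.7 to 36.6 M fragments, with 79.5 to 84.8% of the low values within 0.1 of a step). An exact 0 can be a failed estimate.

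KO, HET and WT libraries were fitted together with limma 3.58.1 in R 4.3.3 (trend and robust moderation, statmod 1.5.0, and the data.table package, version 1.17.8) on log2(FPKM + 1), which understates changes of low genes, with Benjamini-Hochberg adjustment over the 10877 genes with at least 1 FPKM in 3 libraries. The steps were tested on simulated data. Python 3.11.15 with pandas 2.3.3, numpy 2.4.6, scipy 1.17.1 and matplotlib 3.10.9 made the summaries, figures and the exact permutation test. Positions and promoters are from RefSeq GRCm38.p6.

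Genes were named by rule, outside the lists set aside. Among called genes with non-overlapping groups and a mean of at least 2 FPKM in KO or WT, these were the 20 largest rises and falls, the 8 smallest p and the 8 highest levels in each direction. Whatever their level, up to 5 called genes per list were added, and, where a list had none, its 2 most abundant members. Values given outside the rule were chosen after they were seen. A few genes named by this rule are left out and are not reported here. The comparison and the lists were chosen with earlier results of these data known. Alternatives were other pseudocounts, filters, scalings, variance models and sets of libraries. HET bone marrow replicate 2 was not used here.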

Additional observations from a re-analysis of the deposited data

Results flagged for a closer look

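Among the genes named by rule, 3 are given here because their change in bone marrow ran against that in vitro, by the joint fit or in every KO and WT library. Dtx3, a gene of the Deltex family of ubiquitin ligases, had 49.3, 46.9 and 46.6 FPKM in KO and 37.4, 38.6 and 39.3 in WT in vitro, and 0.0179, 0.275 and 0.00816 FPKM in KO and 12.3, 14.7 and 7.35 in WT in bone marrow. The in vitro change exceeded the bone marrow change by 3.76 on the log2 scale (limma joint fit, adjusted p = 0.0221). In vitro alone the log2 change of Dtx3 was 0.30 (limma, adjusted p = 0.0334). That call ended without KO 1, KO 3, HET 2, HET 3, WT 1 or WT 2 (adjusted p up to 0.162) and under 5 other settings. In bone marrow alone Dtx3 did not pass (limma, adjusted p = 0.452). For Ms4a6c and Pbx3 every KO library lay above every WT library in vitro and below every WT library in bone marrow. Ms4a6c had 291, 249.99 and 258 FPKM in KO and 367, 455 and 431 in WT in bone marrow (log2 change -0.64), and Pbx3 had 1.46, 0.0309 and 0 FPKM in KO and 8.08, 5.91 and 3.18 in WT (log2 change -2.23). In the joint fit the differences for Ms4a6c and Pbx3 did not pass the threshold (adjusted p = 0.422 and 0.367).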

How the results depend on the processing

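Of the 325 genes called in vitro, 62 passed under every alternative in which they were tested, and none of the 325 changed direction (0). The count was 152 with no filter on low values (18807 genes tested), 175 with the KO and WT libraries alone and 72 to 489 with 1 library left out; the cause was not tested. With the replicate number as a replicate block it was 172, 71 higher and 101 lower. After the genotype means were removed, same-numbered KO and WT libraries had correlations of 0.176, -0.303 and -0.23. Those of KO and HET were 0.112, 0.181 and 0.0501, and those of HET and WT -0.166, -0.144 and -0.261. Whether the numbers pair libraries was not tested. In bone marrow 2 genes were called with quantile normalization and 0 to 4 with 1 library left out, 4 of them without WT 3. The median of the sex chromosome markers has no value without chromosomes X and Y.

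Reversals were limited to genes without a call. The log2 change of KO against WT was -0.0298 for Echs1, -0.0334 for Hspa8, -0.0261 for Rpl32 and -0.00377 for Rplp1 with median-ratio size factors. It was 0.00883 for Hsp90b1, 0.0348 for Prss34, 0.0318 for Rac2 and 0.0309 for Ube2s with quantile normalization, and with TPM 0.0147 for Rac2 and 0.0219 for Ube2s. With 1 library left out it ranged over both signs, from -0.0942 to 0.0732 for Echs1, -0.0225 to 0.0363 for Hspa8, -0.530 to 0.163 for Mcpt8, -0.0913 to 0.391 for Ms4a2, -0.549 to 0.303 for Prss34, -0.100 to 0.0513 for Rac2, -0.0354 to 0.0692 for Rpl32, -0.00573 to 0.217 for Runx2 and -0.0557 to 0.0242 for Ube2s. The deposited values keep no fragment counts, so counting error per gene is not given.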

Other observations

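Single members of further lists differed between KO and WT cells in vitro (limma). Among 43 lectin and inhibitory receptor genes, Cd300lb, an activating receptor gene of myeloid cells, had 17.0, 17.98 and 17.0 FPKM in KO and 12.5, 8.75 and 8.50 in WT (log2 change 0.77, adjusted p = 0.0125), and Cd33, a sialic acid-binding receptor gene, had 8.25, 7.96 and 8.51 FPKM in KO and 5.86, 4.95 and 2.65 in WT (log2 change 0.80, adjusted p = 0.0465). Mgl2, a C-type lectin gene, was lower, at 0.571, 0.881 and 0.489 FPKM in KO and 1.61, 1.89 and 1.38 in WT (log2 change -0.68, adjusted p = 0.0147). Sgpl1, which encodes the lyase that breaks down sphingosine 1-phosphate, rose to 6.29, 5.93 and 6.33 FPKM in KO, against 4.52, 4.40 and 4.27 FPKM in WT (log2 change 0.41, adjusted p = 0.0242). The histone demethylase gene Kdm4b fell to 6.89, 6.54 and 6.11 FPKM in KO, against 13.3, 10.99 and 10.03 FPKM in WT (log2 change -0.72, adjusted p = 0.0176), and the transcription factor gene Runx3 fell to 15.2, 17.2 and 15.2 FPKM in KO, against 20.5, 21.3 and 22.4 FPKM in WT (log2 change -0.41, adjusted p = 0.0228). KO and WT libraries did not overlap for any of these genes. The calls of Cd300lb, Mgl2, Kdm4b and Runx3 ended without KO 1, KO 3 or WT 2 (adjusted p up to 0.119), that of Sgpl1 without those or HET 2 (up to 0.125), and that of Cd33 without any library except WT 1 and WT 3 (up to 0.168).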
